A study of Mus musculus with 6 samples.

Results

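The olfactory receptor genes, whose symbols start with Olfr in mouse, were examined in exome data of bone marrow and ear from 3 mice. A gene was a member when at least 1 deposited call in it carried a SnpEff annotation of LOW, MODERATE or HIGH impact, and 140 of the 7552 genes with such a call met this rule. RefSeq lists 1428 Olfr genes in GRCm38.p6, of which 1110 are protein-coding, so the members are the part of the family in which something was called. The lists of all variants named 116 members, the Strelka lists 25 and the VarScan2 lists 6, and 24 members came from Strelka lists alone. Of the 140 members, 5 were annotated as pseudogenes and nothing else, and all 140 were found in RefSeq.

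Olfactory receptors are G-protein-coupled receptors that cross the membrane of olfactory sensory neurons and bind odorants. Each such neuron expresses a single receptor gene from a single allele, and the signal runs through the G protein subunit encoded by Gnal, the cyclase Adcy3 and a cyclic nucleotide-gated channel. The genes lie in clusters on many chromosomes, mostly with the coding sequence in 1 exon, and many neighbours are close copies of each other. Bone marrow and ear skin are not where these receptors are known to act, so the values here describe the DNA of the genes and not their use.

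The 6 samples were whole bone marrow and matched ear from each of 3 independent animals, numbered 54 and 108 (male) and 136 (female), labelled C57BL/6. All 3 carried the P95H change of the splicing factor Srsf2 with a tamoxifen-inducible CreERT2, had been given tamoxifen, and were taken 50 to 60 weeks later, when moribund. The labels give that span as the age, and give every animal R26CreERT2, whereas the design text gives 1 of the 3 an hScl-CreERT driver with R26eYFP and does not say which. No animal without the P95H change was sampled, so marrow is set against ear of the same animal and Olfr genes against the rest of the exome. The lists held 24915 to 79759 sites per sample, and both tissues of animals 54, 108 and 136 listed 32732, 49978 and 11755 sites. The changed base of Srsf2 codon 95 was carried by 19.3% to 49.1% of reads in marrow and by 40.3% to 62.2% in ear.

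The inherited sites were very unevenly spread over the animals. A site was called inherited when marrow and ear of the same animal both listed it, and coding when its impact was LOW or above. By this rule 104 members held inherited coding sites. There were 11 in 6 members of animal 54, 424 in 97 members of animal 108, and 113 in 20 members of animal 136. These made up 0.186%, 4.61% and 6.28% of all inherited coding sites of animals 54, 108 and 136. The mean was 183 sites ± 215 (SD, n = 3), a spread larger than the mean, so no single number describes the 3 animals.

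The stretches of DNA that set animals apart are shown next, as the 300 bases around the RefSeq start of 1 member from each of the 4 gene groups with most inherited sites, and of Olfr466, the member with most sites in animal 54. Each runs from 250 bases before the start to 50 after it, 5′ to 3′ on the strand of the gene, in RefSeq sequence of GRCm38.p6. Capitals mark bases at which marrow and ear of the same animal both carried another base. Within each group the member with most such bases was taken, a rule chosen after the sites were seen. On chromosome 14 Olfr221 and Olfr725 tied at 7 bases, and the first symbol was taken.

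Olfr319 (chr11:58701453-58701752, plus strand): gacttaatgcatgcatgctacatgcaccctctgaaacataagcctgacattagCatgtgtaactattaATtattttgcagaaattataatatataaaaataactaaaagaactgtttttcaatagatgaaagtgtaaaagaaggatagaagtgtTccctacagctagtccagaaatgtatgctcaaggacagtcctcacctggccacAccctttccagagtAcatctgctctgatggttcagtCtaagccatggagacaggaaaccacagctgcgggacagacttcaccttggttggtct
Olfr251 (chr9:38377633-38377932, plus strand): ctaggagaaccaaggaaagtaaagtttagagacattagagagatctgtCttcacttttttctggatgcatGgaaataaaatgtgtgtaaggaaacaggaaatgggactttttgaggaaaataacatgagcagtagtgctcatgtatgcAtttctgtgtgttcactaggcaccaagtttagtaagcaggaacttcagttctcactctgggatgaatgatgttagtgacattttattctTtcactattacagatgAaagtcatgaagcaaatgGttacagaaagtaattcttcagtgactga
Olfr221 (chr14:52036060-52036359, minus strand): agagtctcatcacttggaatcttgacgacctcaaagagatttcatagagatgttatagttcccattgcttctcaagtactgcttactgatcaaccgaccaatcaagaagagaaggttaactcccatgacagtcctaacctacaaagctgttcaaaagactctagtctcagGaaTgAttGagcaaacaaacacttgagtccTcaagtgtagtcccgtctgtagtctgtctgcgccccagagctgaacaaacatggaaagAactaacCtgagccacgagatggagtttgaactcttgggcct
Olfr1303 (chr2:111814675-111814974, minus strand): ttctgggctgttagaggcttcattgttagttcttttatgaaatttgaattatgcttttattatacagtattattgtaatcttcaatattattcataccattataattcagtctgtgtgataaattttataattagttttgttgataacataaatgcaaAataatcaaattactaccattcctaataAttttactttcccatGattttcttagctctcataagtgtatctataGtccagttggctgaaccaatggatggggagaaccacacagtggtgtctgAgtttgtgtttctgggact
Olfr466 (chr13:65151976-65152275, plus strand): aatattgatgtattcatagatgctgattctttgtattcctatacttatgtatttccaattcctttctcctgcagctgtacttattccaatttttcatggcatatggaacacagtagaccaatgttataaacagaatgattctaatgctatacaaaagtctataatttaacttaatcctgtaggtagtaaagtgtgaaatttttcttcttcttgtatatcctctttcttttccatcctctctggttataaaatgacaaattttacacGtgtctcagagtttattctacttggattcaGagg

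In the Olfr319 window 7 bases varied, all before the start, and 6 of them did so in both animal 108 and animal 136. Counted from 1 at the 5′ end of the window, these were A69C, T70C, T155G, A208G, A222G and C244T, while C54A was inherited in animal 136 alone. At C244T, 93 of 201 marrow reads and 105 of 213 ear reads of animal 108 had the variant, and 107 of 226 marrow reads and 108 of 194 ear reads did in animal 136. The Olfr251, Olfr221 and Olfr1303 windows varied in animal 108 alone, at 6, 7 and 5 bases, and the Olfr466 window varied in animal 54 alone, at 2 bases. All 5 windows have ATG at the start, as do 686 of the 948 Olfr windows in the table, so their last 50 bases are coding. There, A254C and G272A of Olfr251, C266G of Olfr221, A282C of Olfr1303, and G267A and G297A of Olfr466 change the protein.

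Over all Olfr windows, 55 genes held 124 inherited single nucleotide variants, 97 before the start and 27 after it. A window was found for 112 of the 140 members. TAATTA, the core that homeodomain proteins bind and a motif named in studies of olfactory receptor promoters, was present on either strand in 15 of 82 windows of members with an inherited coding site (18.3%), in 18.6% of all Olfr windows and in 5.29% of all 32851 windows. The letters read the same on both strands. Of the 124 variants, 2 lay inside a TAATTA match, and both were the A69C and T70C of Olfr319, inside its bases 67 to 72. The motif of EBF proteins, also searched on both strands, was in 0 of the 82 windows, in 0.527% of all Olfr windows and in 0.904% of all windows. In 686 of the 948 Olfr windows the RefSeq start is an ATG, so they flank the coding start and need not hold the promoter. Windows of other genes may be placed differently, and base composition was not matched, so these motif shares are not like for like.

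The sites fell into few parts of the genome. RefSeq Olfr genes were grouped wherever neighbours lay within 3 Mb, a rule chosen after the sites were seen, which gave 56 groups, and 9 of them held an inherited coding site. In animal 108, 4 groups held all but 2 of the 424 sites. These were 141 sites in 34 genes on chromosome 9 (37711428 to 40127555), 139 sites in 32 genes on chromosome 14 (49960195 to 54282860), 104 sites in 18 genes on chromosome 11 (58455336 to 58842003) and 38 sites in 11 genes on chromosome 2 (111780343 to 112157006). In animal 136, the same chromosome 11 group held 111 of the 113 sites, also in 18 genes. Animal 54 had no site in any of these groups. Its 11 sites were 6 in Olfr466 on chromosome 13, 3 on chromosome 9 near positions 18754895 to 20286648, and 1 each on chromosomes 3 and 7.

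**Figure D1:**
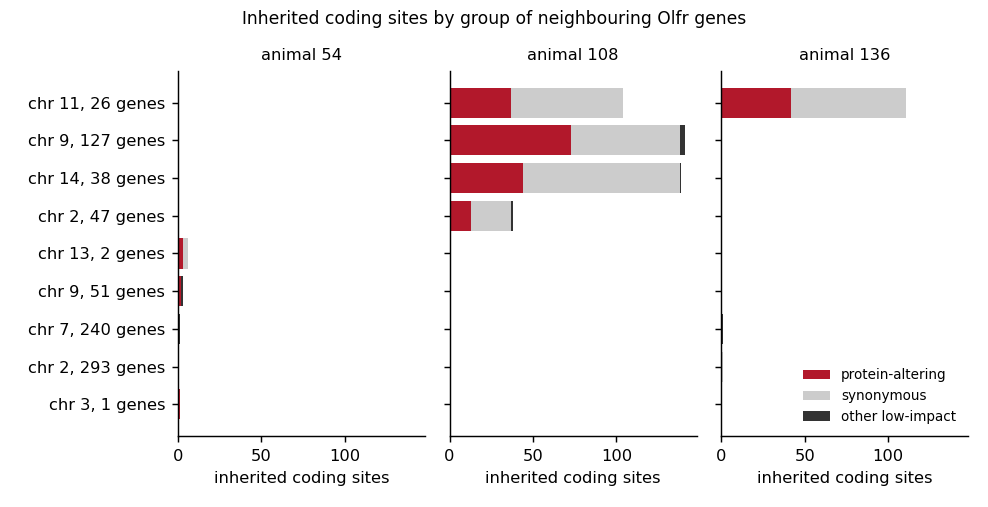
Number of inherited coding sites (x axis) in each group of neighbouring Olfr genes that held any (y axis, with the number of RefSeq Olfr genes in the group), for animals 54, 108 and 136, split into protein-altering, synonymous and other low-impact sites. The chromosome 11 group is filled in animals 108 and 136, with 104 and 111 sites, and the larger chromosome 9 group, the chromosome 14 group and a chromosome 2 group in animal 108 alone.

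In the chromosome 14 and chromosome 11 groups that carried sites, most protein-coding receptors held at least 1. On chromosome 14, 32 of the 37 protein-coding Olfr genes of the group (86.5%) had at least 1 inherited coding site in animal 108. On chromosome 11 it was 18 of 24 (75.0%) in animal 108 and 18 of 24 in animal 136. On chromosome 9 it was 31 of 95 (32.6%). By contrast the largest group in RefSeq, 293 Olfr genes on chromosome 2, had 1 site in animal 108 and 1 in animal 136. The class I receptors, the family branch first known from fish, were taken as 158 RefSeq Olfr genes in a fixed stretch of chromosome 7. They held 0 inherited coding sites in the 3 animals, and 8 of them were members through calls in 1 tissue or somatic calls. Other genes of these stretches were not counted in the same way. Neither the shares above nor this 0 is therefore shown to be particular to receptors.

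Animals 108 and 136 carried the same alleles on chromosome 11. Of the sites there, all but 2 of the 104 inherited in animal 108 were inherited in animal 136 too. The shared sites are 98.1% of those of animal 108 and 91.9% of those of animal 136. The 2 sites inherited in animal 108 alone were both listed in 1 tissue of animal 136, and of the 9 inherited in animal 136 alone, 8 were listed in 1 tissue of animal 108. At the shared sites of animal 108 the median variant fraction was 47.4% in marrow (22.8% to 62.4%) and 47.1% in ear (25.1% to 65.2%). At the same sites of animal 136 it was 45.4% in marrow (23.4% to 67.9%) and 45.4% in ear (22% to 61.8%). The 2 animals therefore count the same stretch of DNA and are not independent for it. Outside chromosome 11 no Olfr coding site was inherited in both. Animals 54 and 136 shared 1 site, in Olfr697 on chromosome 7, and animals 54 and 108 shared 0.

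No inherited Olfr coding site was close to homozygous. The median over the sites of animal 54 was 40.7% of marrow reads and 42.1% of ear reads. Animal 108 had medians of 46.6% for marrow and 46.7% for ear, and animal 136 of 45.3% for marrow and 44.5% for ear. The highest fraction in animal 108 was 63.4% for marrow and 74.0% for ear, and no site in any animal reached 90%. Among marrow coding sites of all other genes, 1.53%, 1.41% and 6.29% reached 90% in animals 54, 108 and 136. The limit that a count of 0 allows for Olfr sites is 27.3%, 0.708% and 2.65% in animals 54, 108 and 136, so the count of 0 lies below the share of other genes in animals 108 and 136 and is uninformative in animal 54. Neighbouring sites are inherited together, so these limits, which cover counting error only, are too narrow.

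Reads at these genes were placed with less certainty than elsewhere in animals 108 and 136, but not in animal 54. The median mapping quality of inherited Olfr sites was 35.5 in marrow and 36 in ear of animal 108, against 42 in both tissues at coding sites of other genes. In animal 136 it was 31 in marrow and 32 in ear, against 41 in both for other genes, and in animal 54 it was 42 in both tissues, against 41. Sites of mapping quality under 40 made up 65.1% of the Olfr sites and 20.6% of the others in marrow of animal 108, and 65.5% of the Olfr sites and 40.1% of the others in marrow of animal 136. Animal 54 went the other way, with 18.2% of the Olfr sites and 29.3% of the others under 40 in marrow. The median depth of Olfr sites in animal 108 was 204 reads for marrow and 183.5 for ear, against 101 and 98 for other genes. The medians in animal 136 were 206 and 138 for Olfr sites, against 119 and 83. Olfr sites of animal 54 had fewer reads, 71 in marrow and 120 in ear, against 90 and 138. Where receptors are near-identical, reads of 1 copy can be counted at another, and the part of this in the sites below was not tested.

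The ratio of protein-altering to synonymous inherited sites was not shown to differ between Olfr genes and all other genes. Protein-altering means MODERATE or HIGH impact, in Olfr and other genes alike. By this rule the Olfr counts include 4 splice site changes of animal 108 in genes annotated as pseudogenes, which make no known receptor. Animal 54 had 6 protein-altering and 3 synonymous Olfr sites (ratio 2), against 2135 and 3010 in other genes (0.709). Animal 108 had 169 and 250 in Olfr genes (0.676), against 2826 and 4839 in other genes (0.584). Animal 136 had 42 and 70 in Olfr genes (0.60), against 601 and 740 in other genes (0.812). Animals 54 and 108 thus stood above the other genes and animal 136 below them.

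As a share of the 2 kinds of site together, protein-altering changes were 66.7% in Olfr genes of animal 54 (95% Clopper-Pearson interval 29.9 to 92.5), against 41.5% in other genes. For animal 108 the share was 40.3% (35.6 to 45.2) in Olfr genes, against 36.9%, and in animal 136 it was 37.5% (28.5 to 47.1) in Olfr genes, against 44.8%. In each animal the interval of the Olfr genes contained the value of the other genes. The log2 of the ratio of ratios, Olfr over other, was 1.5, 0.21 and -0.44 in animals 54, 108 and 136, a mean of 0.42 ± 0.98 (SD, n = 3). An exact two-sided paired sign-flip permutation test over animals gave p = 0.75, and 3 animals cannot give a p below 0.25. The positive mean rests on the 9 sites of animal 54, since without that animal it was -0.11. With each site counted once over the animals, Olfr genes had 180 protein-altering and 258 synonymous sites (41.1%, 36.4 to 45.9) and other genes 4647 and 7422 (38.5%, 37.6 to 39.4).

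**Figure D2:**
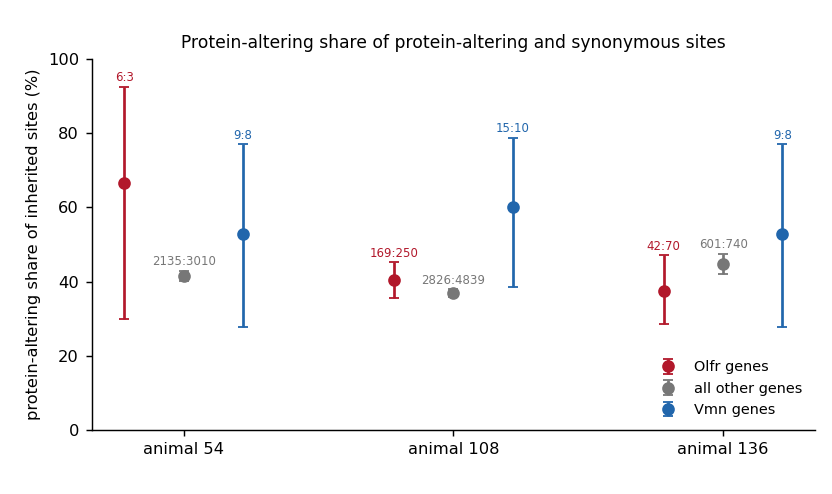
Protein-altering share (y axis, percent of protein-altering plus synonymous inherited sites) in each animal for Olfr genes, all other genes and the vomeronasal (Vmn) receptor genes among them, with 95% Clopper-Pearson intervals and the 2 counts above each bar. Olfr genes lie above all other genes in animals 54 and 108 and below them in animal 136, and each Olfr interval contains the value of the other genes.

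Against their neighbours the receptors stood in the same order as against all other genes. In animal 54, other genes in the 1 Mb windows that held an inherited Olfr coding site had 29 protein-altering and 36 synonymous sites (ratio 0.806), beside 2 for Olfr genes. Such neighbours had 292 protein-altering and 460 synonymous sites in animal 108 (ratio 0.635), beside 0.676 for Olfr genes, and 62 and 82 in animal 136 (0.756), beside 0.60. Against these neighbours the mean log2 ratio of ratios was 0.36 ± 0.85 (SD, n = 3; exact sign-flip permutation test, p = 0.75). The vomeronasal receptors, the chemoreceptor family of the organ that senses pheromones, had 9 protein-altering and 8 synonymous sites in each of animals 54 and 136, and 15 and 10 in animal 108. In marrow, 100%, 96.2% and 100% of their sites in animals 54, 108 and 136 had a mapping quality under 40. The comparison with them thus rests almost wholly on reads placed with low certainty. Against them the mean log2 ratio of Olfr genes was -0.41 ± 1.08 (SD, n = 3; exact sign-flip permutation test, p = 0.5).

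The order of the 2 gene classes differed with mapping quality in animal 108. At sites with a quality of at least 40 in both tissues, the protein-altering share was 41.2% (32.8 to 49.9) in Olfr genes, 56 of 136 sites, against 33.7% (32.5 to 34.9) in other genes. At the remaining sites it was 39.9% (34.2 to 45.9) in Olfr genes, against 47.8% (45.4 to 50.1) in other genes. The Olfr share was thus nearly the same in both classes of quality, and the share of other genes was not. In animal 136 the share in Olfr genes was 28.9% (15.4 to 45.9) at a quality of at least 40, against 39.5% in other genes, and 41.9% (30.5 to 53.9) at the remaining sites, against 52.8%.

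**Figure D3:**
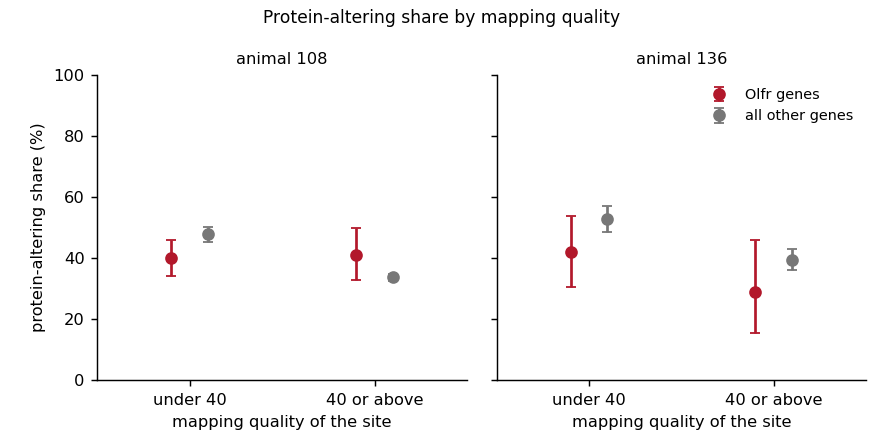
Protein-altering share (y axis, percent) of inherited sites with a mapping quality under 40 in a tissue and of those with 40 or above in both (x axis), for Olfr genes and all other genes in animals 108 and 136, with 95% Clopper-Pearson intervals. In animal 108 the Olfr share is 39.9% and 41.2%, while that of other genes is 47.8% and 33.7%.

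Among the receptors themselves, the protein-altering share ran from 31.9% to 52.9% over the 4 groups with most sites. The chromosome 9 group of animal 108 had 73 protein-altering and 65 synonymous sites, a share of 52.9% (44.2 to 61.4). The 73 include the 4 splice site changes in pseudogenes. The chromosome 14 group had 44 and 94, a share of 31.9% (24.2 to 40.4), so the intervals of these 2 groups do not overlap. The chromosome 11 group had 37 and 67 in animal 108 (35.6%, 26.4 to 45.6) and 42 and 69 in animal 136 (37.8%, 28.8 to 47.5), and the chromosome 2 group had 13 and 24 (35.1%, 20.2 to 52.5). The groups were formed after the values were seen, and each is 1 stretch of DNA in 1 or 2 animals, so no test was made. The median mapping quality in marrow was 38 on chromosome 9 and 34 on chromosome 14, and its part in the difference was not tested.

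Of the 104 members with inherited coding sites, 34 had more protein-altering than synonymous sites, 49 had fewer and 21 had as many of each. A member had a median of 3 sites and at most 27, and 79 members had at least 1 protein-altering site. In animal 108, 75 of 97 Olfr genes (77.3%) with an inherited coding site had a protein-altering one, against 1047 of 2009 other genes (52.1%), at a mean of 4.37 coding sites per gene in Olfr genes and 4.36 in others. In animal 136 it was 14 of 20 (70%), against 243 of 565 (43.0%), at means of 5.65 and 2.98 sites. Coding sites also include other low-impact sites, which were a larger part in other genes, so the means of animal 108 are not matched. There, 169 of 424 coding sites in Olfr genes were protein-altering and 250 synonymous, against 2826 and 4839 of 8765 in other genes. Sites of a group are linked and their spread over genes was not matched, so an excess in Olfr genes is not shown. The 10 members with most protein-altering sites held 65 of the 180 (36.1%). Place 10 was tied at 4 sites between Olfr1303, Olfr1306 and Olfr324, and the first symbol was taken.

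Of these 10, 5 lie on chromosome 9 and varied in animal 108 alone. Olfr251 (ENSMUSG00000096757, chromosome 9, 38377883 to 38378833 in GRCm38.p6), a receptor of 316 residues, led with 12 protein-altering and 15 synonymous sites. Its median variant fraction was 46.2% in marrow (35.4% to 53.1% over sites) and 46.5% in ear (37.1% to 52.4%), at median depths of 265 and 237 reads and mapping qualities of 33 and 32. The adjacent Olfr250 (ENSMUSG00000049864, 38367548 to 38368543) had 9 and 16, with median fractions of 38.6% in marrow and 37.2% in ear. Olfr251 thus varied at 27 sites and Olfr250 at 25, all of intermediate fraction in both tissues.

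Olfr902 had 7 protein-altering and 3 synonymous sites, and Olfr905 had 5 and 7. Olfr893 (ENSMUSG00000093901, 38209052 to 38209993) was the most one-sided of the 10, with 6 protein-altering sites and 1 synonymous site. Its 6 missense changes were H2L, R26Q, M48V, A121V, S173L and N308K in a protein of 312 residues. The R26Q change was carried by 90 of 206 reads (43.7%) in marrow and 90 of 219 (41.1%) in ear. The median mapping quality there was 41 in marrow and 42 in ear, above that of Olfr251 and Olfr250.

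The rest of the 10 were spread over the other groups. Olfr313 (ENSMUSG00000070438) on chromosome 11 had 6 protein-altering and 6 synonymous sites, and all 12 were inherited in animal 108 and again in animal 136. Its median fractions in animal 108 were 40.5% for marrow and 37.5% for ear, and those in animal 136 were 39.1% for marrow and 40.1% for ear, at depths of 479 to 730 reads but a mapping quality of 27.5 to 29. Olfr316, also on chromosome 11, had 3 protein-altering sites inherited in animal 108 and 6 in animal 136. On chromosome 14, Olfr221 had 5 protein-altering and 18 synonymous sites and Olfr739 had 5 and 7. On chromosome 2, Olfr1303 had 4 and 6, at the lowest median fractions of the 10, 32.1% in marrow and 32.7% in ear.

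Animal 54 was described site by site because it had few. Olfr466 (ENSMUSG00000049806, chromosome 13, 65152226 to 65153152) held R6H, R16K and L84M and 3 synonymous changes, with fractions of 40% to 52.4% in marrow and 33.7% to 51.7% in ear. The other missense changes were V263D in Olfr1402 (33 of 81 reads in marrow, 56 of 133 in ear), V247I in Olfr24 (38 of 77 and 45 of 120) and V298F in Olfr834 (26 of 67 and 85 of 150). Olfr39 and Olfr697 each had 1 splice region site. Outside Olfr466 this animal had 3 protein-altering and 0 synonymous Olfr sites, so no ratio can be formed without that gene. These members were singled out after their values were seen.

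Inherited stop gains were rare in Olfr genes and in other genes alike. With each site counted once over the animals, they were 1 of 445 coding sites in Olfr genes (0.225%, 0.00569 to 1.25). In other genes they were 32 of 13783 (0.232%). There was 1 inherited stop gain in the family, in animal 136. Olfr332 (ENSMUSG00000050813, chromosome 11, 58489719 to 58492499) carried E336* at position 58489748, which would remove the last 9 of 344 residues. In animal 136 the stop was carried by 18 of 32 reads in marrow (56.2%, 37.7 to 73.6) and by 11 of 28 in ear (39.3%, 21.5 to 59.4). In animal 108 it was carried by 9 of 26 reads in marrow (34.6%, 17.2 to 55.7) and was not in the ear list, so it was not counted as inherited there.

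As a share of inherited coding sites, stop gains were 0 of 11 in Olfr genes of animal 54, which allows up to 27.3%, against 17 of 5893 (0.288%) in other genes. In animal 108 they were 0 of 424, which allows up to 0.708%, against 22 of 8765 (0.251%). In animal 136 they were 1 of 113 (0.885%, 0.0224 to 4.83), against 12 of 1685 (0.712%). The mean difference, Olfr minus other, was -0.122 percentage points ± 0.256 (SD, n = 3; exact two-sided sign-flip permutation test, p = 0.5, smallest possible 0.25). The share in other genes lies within what the Olfr counts allow in all 3 animals, so a difference was not detectable with these numbers of sites.

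Over all HIGH impact changes, Olfr genes had 0 of 11, 4 of 424 (0.943%, 0.258 to 2.40) and 1 of 113 (0.885%, 0.0224 to 4.83) in animals 54, 108 and 136, against 1.49%, 1.59% and 4.75% in other genes. No inherited frameshift was seen in Olfr genes, against 0.492%, 0.605% and 1.48% of coding sites of other genes in animals 54, 108 and 136. The counts of 0 allow up to 27.3%, 0.708% and 2.65%, so a difference was not detectable in any of the 3. The 4 HIGH impact sites of animal 108 were splice site changes in genes annotated as pseudogenes, which make no known receptor. They were 1 in Olfr892-ps1, 2 in Olfr908 and 1 in Olfr964-ps1, all indels on chromosome 9. The Olfr892-ps1 site had 38 of 78 reads in marrow and 37 of 50 in ear, and the Olfr964-ps1 site had 77 of 168 and 74 of 169. The first Olfr908 site had 103 of 236 reads in marrow and 111 of 225 in ear.

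Missense changes lay along the whole receptor. With each protein cut into 3 equal parts, the missense share of missense and synonymous sites of animal 108 was 44.1% (35.8 to 52.6) in the N-terminal part, 33.3% (25.3 to 42.2) in the middle and 41.3% (33.1 to 49.8) in the C-terminal part. In other genes of that animal it was 38.1%, 33.1% and 32.5%. In animal 136 the Olfr shares were 51.6% (33.1 to 69.8), 23.5% (10.7 to 41.2) and 37.0% (23.2 to 52.5). The middle part had the lowest missense share in animals 108 and 136, with overlapping intervals. Most Olfr sites of animal 136 lie on chromosome 11, and 91.9% of those were inherited in animal 108 too. The lower share in animal 136 is therefore not an independent repeat of that in animal 108. With each protein cut into 10 equal parts and each site counted once, the lowest missense count was 6, beside 25 synonymous sites, in part 4.

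**Figure D4:**
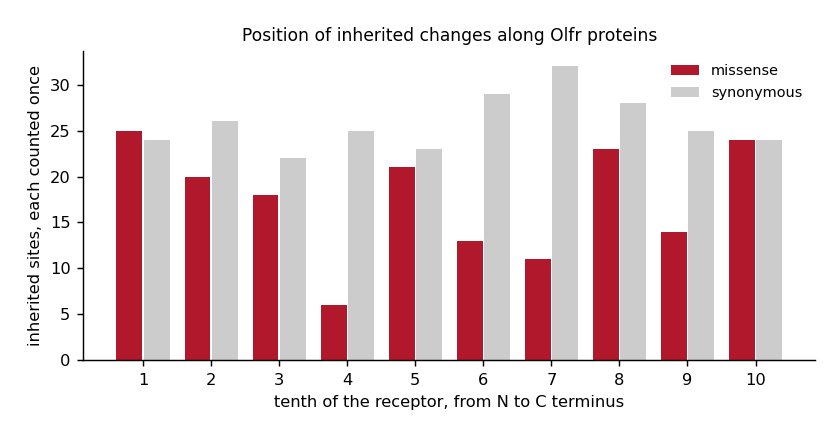
Number of inherited missense and synonymous sites (y axis, each site counted once over the animals, 433 in all) in each of 10 equal parts of the receptor from the N to the C terminus (x axis). Missense sites number 25 in part 1, 24 in part 10 and 6 in part 4, while synonymous sites range from 22 to 32.

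The exchanged residues were mostly alike. A missense change was called conservative when its BLOSUM62 score, a measure of how often 2 residues replace each other in related proteins, was 0 or above. Conservative changes were 66.7% of missense sites in Olfr genes of animal 54 (22.3 to 95.7), against 60.2% in other genes. They were 67.9% (60.2 to 74.9) in Olfr genes of animal 108, against 63.1% (61.2 to 65.0), and 85.4% (70.8 to 94.4) in animal 136, against 59.1% (54.7 to 63.4). The share was higher in Olfr genes in 3 of 3 animals, and the intervals were apart in animal 136 alone. Most Olfr sites of animal 136 lie on chromosome 11, where 91.9% of its sites were inherited in animal 108 too. Animals 108 and 136 are therefore not independent here, and the value of animal 54 rests on 6 missense sites. No test over sites was made, since sites of a group are linked. Exchanges of F and L made up 12 of 175 Olfr missense sites (6.86%), against 95 of 4239 in other genes (2.24%), and exchanges of I and L 8 (4.57%), against 37 (0.873%). Those 2 exchanges were picked after the counts were seen.

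No inherited receptor variant was shown to differ in fraction between marrow and ear. Each site with at least 10 reads in both tissues was tested by a two-sided Fisher exact test on reads per allele, with Benjamini-Hochberg adjustment over all such sites of the animal. Of the Olfr sites, 0 of 11, 0 of 424 and 0 of 112 had an adjusted p under 0.05 in animals 54, 108 and 136, where the share called over all sites was 0.0346%, 0.0327% and 0.0181%. An unadjusted p under 0.05 was found at 1 of 11 (9.09%), 41 of 424 (9.67%) and 6 of 112 (5.36%) Olfr sites, beside 8.41%, 7.43% and 6.22% of all sites. Of the 41 in animal 108, 24 had the higher fraction in marrow and 17 in ear.

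The Olfr site with the lowest adjusted p was A103V in Olfr1510 on chromosome 14, named after its value was seen, at a mapping quality of 24 in marrow and 26 in ear. The variant in animal 108 was on 93 of 175 marrow reads (53.1%) and 46 of 153 ear reads (30.1%), with an adjusted p of 0.0736 by the exact test. The Olfr332 change V313V was on 28 of 55 marrow reads (50.9%) and 9 of 41 ear reads (22%) in animal 136 (exact test, adjusted p = 0.439). The same change in animal 108 was on 20 of 45 marrow reads and 30 of 46 ear reads, the opposite order. Over Olfr sites with an ear fraction of 30% to 70%, marrow averaged 42.4% and ear 43.8% in animal 54 (10 sites). Marrow averaged 46.3% and ear 45.9% in animal 108 (412 sites), and marrow 45.4% and ear 44.7% in animal 136 (110 sites). The mean difference, marrow minus ear, was -0.0766 percentage points ± 1.19 over animals (SD, n = 3), with p = 1 by an exact sign-flip permutation test on the paired tissues. It was 0.606 without animal 54. In other genes it was -0.535 ± 0.331 (SD, n = 3; exact, p = 0.25).

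**Figure D5:**
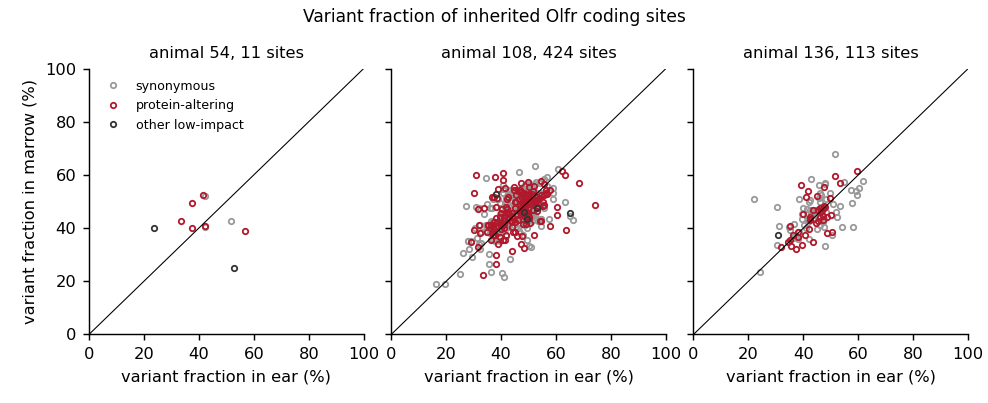
Variant fraction in marrow (y axis, percent of reads) against that in ear (x axis) at each inherited Olfr coding site of animals 54, 108 and 136 (11, 424 and 113 sites), with the line of equal fractions. The points gather around the line between about 30% and 70%, and none reaches 90% in either tissue.

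The somatic lists, in which marrow was set against ear by the authors, held 9 VarScan2 and 26 Strelka coding calls in receptors, and the 2 callers shared none of them. They shared little in any gene, since 3 of 302 coding single nucleotide calls of VarScan2 (0.993%) were also among the 3745 of Strelka. With exact Poisson intervals of the count of calls, VarScan2 gave animal 54 0 of 113 coding calls in Olfr genes (0 to 3.69), animal 108 6 of 156 (2.20 to 13.1) and animal 136 3 of 56 (0.619 to 8.77). Strelka gave animal 54 7 of 1682 (2.81 to 14.4), animal 108 3 of 886 (0.619 to 8.77) and animal 136 16 of 1244 (9.15 to 26). Olfr genes made up 2.77% of VarScan2 coding calls (1.27 to 5.19) and 0.682% of Strelka coding calls (0.446 to 0.998) over the 3 animals. The part of the captured sequence that lies in Olfr genes was not counted, so neither share is shown to be low or high. The VarScan2 lists marked 0 Olfr coding sites as loss of heterozygosity, among 34 such coding calls.

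The 9 VarScan2 calls all lay in members that also held inherited sites in the same animal, and each had variant reads in the ear. These shares were not counted for VarScan2 calls in other genes, so neither is shown to be particular to receptors. By the authors' deposited read counts the variant was on 25.2% to 50.0% of marrow reads and on 10% to 20% of ear reads, and the authors' somatic p ran from 0.00273 to 0.0461. Of the 9, 1 was protein-altering (11.1%, 0.281 to 48.2) and 8 were synonymous, against 154 protein-altering and 90 synonymous of 316 calls in other genes (48.7% protein-altering). The missense call was W260C in Olfr725 on chromosome 14, with 38 of 135 reads in marrow and 16 of 96 in ear of animal 108. A synonymous call lay 9 bases away in the same gene (36 of 139 reads in marrow, 15 of 99 in ear), and Olfr1510 and Olfr318, named after the calls were seen, also held 2 calls each.

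The marrow variant list of the same animal held 3 of the 9 calls, namely L240L of Olfr1303, V314V of Olfr317 and V313V of Olfr332. The last of these was in the ear list too, with 26 of 52 marrow reads and 8 of 40 ear reads in the VarScan2 table of animal 136, and it counts above as an inherited site. It was listed in both tissues of animal 108 as well. The 2 calls of Olfr318 in animal 136, S291S and Y290Y, were in the ear list of animal 108, on 30 of 94 and 31 of 97 reads. Thus 3 of the 9 calls stood in lists of another animal, a share that was not counted for other genes.

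The Strelka lists held 26 calls in 25 members. None lay in a member with an inherited coding site in the same animal (0%, 95% interval 0 to 13.2), and among Strelka coding calls of other genes 315 of 3786 (8.32%) lay in a gene with such a site, which is within that interval. Protein-altering changes were 20 of 26 (76.9%, 56.4 to 91.0), against 2671 of 3786 (70.5%, 69.1 to 72.0) of the coding calls in other genes. The class I receptors held 7 of the 26 (26.9%, 11.6 to 47.8) and make up 158 of the 1428 RefSeq Olfr genes (11.1%). No test was made of this count, which was singled out after the calls were seen. Most of the 7 came from animal 136 and none from animal 108. The 1428 genes also include some that are not protein-coding, since 1110 are, whereas the calls are coding calls. Of 23 single base changes, 14 were C to A or its complement (60.9%), against 41.4% of all Strelka single base calls. Animals 54, 108 and 136 gave 3, 3 and 8 of the 14. No test was made of this small count, so an excess is not shown. The authors' quality per call ranged from 15 to 64 with a median of 27, and 12 calls had at least 30.

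Among the Strelka calls, 1 was also in the marrow list of its animal. It was L297P in Olfr1254 on chromosome 2, a missense change on 4 of 38 marrow reads (10.5%) in animal 136, with a quality of 25. Olfr131 on chromosome 17 was the member with Strelka calls in more than 1 animal, Q82H in animal 136 (quality 28) and a change before the start codon in animal 54 (quality 26), at different positions. A stop gain, E23* in Olfr551, had a quality of 15, and a frameshift in Olfr685 had 37, both in animal 136 and both singled out after the calls were seen. The Strelka lists give no read counts, so no fraction can be stated for calls that the marrow list lacks.

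Genes that carry the receptor signal or take part in receptor choice were counted too, and no inherited coding site in them was protein-altering. Of 27 such genes listed by symbol, among them Gnal, Adcy3, the channel subunits Cnga2, Cnga4 and Cngb1, the transport proteins Rtp1 and Rtp2, and the trace amine receptors (Taar genes), 4 had an inherited coding site and 0 had a protein-altering one. Of these, 3 had a synonymous site. Among all other genes with an inherited coding site, 55.2%, 52.1% and 43.0% had a protein-altering one in animals 54, 108 and 136. A count of 0 among 4 genes is too small to show a difference from these shares. No share over all genes was set beside the 4 of 27, so that count is not shown to be low or high. A protein-altering Strelka call was listed in 3 of the 27 (11.1%, 2.35 to 29.2), against 2180 of 21900 RefSeq protein-coding genes (9.95%), so the list stood near the background.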

How the data were processed

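Genomic DNA of marrow and ear from 3 mice (6 samples) was captured with a 50 Mb exon kit, and per the labels' protocols the mean depth was 100 reads. GRCm38 and mm9 are the builds, and Bowtie2, SAMtools and FastQC the tools, listed in the submitters' processing notes. At 1450 of 1450 inherited variants inside RefSeq promoter windows the GRCm38.p6 base was the listed reference base, so positions are in GRCm38. Per the file headers, the authors deposited SAMtools variant lists with SnpEff annotation, VarScan2 lists with read counts per allele and a somatic p-value, and Strelka lists with a quality per call. No source used here gives the filters. The lowest total depth in the variant lists was 11 reads, and fractions use the reads assigned to an allele, which can be fewer. VarScan2 columns were assigned by name and checked against the variant lists, where the assigned column was the closer at 441 of 441, 979 of 979 and 263 of 263 marrow sites of animals 54, 108 and 136, and at 256 of 277, 314 of 341 and 60 of 71 ear sites.

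From these files, a site took its most severe Olfr annotation (for other genes, its most severe annotation outside Olfr genes), and matched between lists by chromosome, position and alleles. Variant fractions are variant reads over reads of both alleles. Intervals (95%, Clopper-Pearson or exact Poisson) cover counting error only: neither linked sites nor reads lacking molecular identifiers are independent, and a list gives no depth where nothing was called. Marrow and ear share an animal per the labels. Their deviations from tissue means correlated at 0.33, 0.38 and 0.26 in animals 54, 108 and 136 over 636 sites inherited in all 3, and between -0.31 and 0.00 across animals. The Fisher step was tested on simulated reads. SciPy 1.17.1 and Biopython 1.88 were used. Members, lists and tests were chosen with earlier results of these data known. Named members have an inherited HIGH impact change, rank in the top 10 by protein-altering sites, pass the tissue test, or have a protein-altering VarScan2 call, a somatic call backed by another list, or somatic calls in more than 1 animal. Any other is said to be picked later. Gene spans and window sequences are from RefSeq.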

Additional observations from a re-analysis of the deposited data

How the results depend on the processing

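None of the tests over animals could pass, since 3 pairs allow no p below 0.25, so alternatives were read for direction and size. The mean log2 ratio of ratios (0.42) kept its sign with the first annotation, with at least 20 reads, with a mapping quality of at least 40, with ear calls alone, with single nucleotide variants, with sites counted once, against neighbours and with missense changes alone. It was -0.41 against vomeronasal receptors and -0.11 with animal 54 restricted to sites outside Olfr466, which leaves that animal without a synonymous site and so without a value. Leaving out 1 animal in turn gave -0.11 to 0.85. The stop-gain difference (-0.122 points) turned to 0.515 at a mapping quality of at least 40 and to 0.215 against neighbours, and ran from -0.270 to -0.0391 with 1 animal left out. The marrow minus ear difference (-0.0766 points) was 0.564 with ear fractions of 20% to 80%, 0.882 with at least 20 reads, and -0.487 to 0.606 with 1 animal left out. With no replicate block it was -0.0766 as well (exact permutation test of 3 against 3, p = 1, smallest possible 0.1). The cause of these changes was not tested. The mean number of inherited Olfr coding sites (183) was 61.3 at a mapping quality of at least 40 and 62 to 268.5 with 1 animal left out, and 445 distinct sites were found over the 3 animals. VarScan2 calls (9) numbered 3 at a somatic p under 0.01 and 3 to 9 with 1 animal left out, and Strelka calls (26) numbered 12 at a quality of at least 30 and 10 to 23 with 1 animal left out. The count of 0 Olfr sites differing between tissues was 0 with at least 20 reads, with Bonferroni adjustment and with any 1 animal left out. A variant fraction of at least 90% in both tissues left 0 Olfr sites and gave no value. The missense, Olfr466 and either-tissue alternatives were chosen after seeing the data.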

Other observations

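Receptor sites listed in 1 tissue of an animal and not in the other were 30 of 454 (6.61%, 95% Clopper-Pearson interval 4.50 to 9.30) in marrow and 13 of 437 (2.97%, 1.59 to 5.03) in ear of animal 108. In other genes of that animal they were 11.7% in marrow and 10.4% in ear. In animal 136 they were 4 of 117 (3.42%, 0.939 to 8.52) in marrow and 7 of 120 (5.83%, 2.38 to 11.6) in ear for Olfr genes, against 33.3% in marrow and 38.1% in ear for other genes. In animal 54 they were 1 of 12 (8.33%, 0.211 to 38.5) in marrow and 4 of 15 (26.7%, 7.79 to 55.1) in ear, against 13% in marrow and 18.2% in ear for other genes, so the ear share stood above that of other genes there. The receptor sites private to marrow of animal 108 had a median of 135 reads and a variant fraction of 32.0%, against 22 reads and 23.8% in other genes. Depth at uncalled sites is unknown, so a site in 1 list may be present in the other tissue.

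The frameshift Ile307fs of Olfr44, near the C terminus of a receptor of 314 residues on chromosome 9, was on 76 of 146 reads (52.1%) in marrow of animal 108 and on 116 of 220 reads (52.7%) in ear of animal 54. It was listed in 1 tissue of each of these animals and so was not counted as inherited. The stop gain R173* of Olfr586, a class I receptor of 317 residues, was on 3 of 23 reads in ear of animal 108. Both members were named after their values were seen. Counting stop gains in either tissue, Olfr genes had 0 of 16, 2 of 467 and 1 of 124 coding sites in animals 54, 108 and 136, against 55 of 8090, 63 of 10942 and 56 of 3566 in other genes. The difference, Olfr minus other, was -0.530 percentage points ± 0.334 (SD, n = 3; exact sign-flip permutation test, p = 0.25, smallest possible 0.25). This count adds sites listed in 1 tissue. Such sites were a larger part of other genes than of Olfr genes in animals 108 and 136, and a smaller part in ear of animal 54. Their part in the difference was not tested.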
